A study of Mus musculus with 20 samples.

Results

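The 9 proneural basic helix-loop-helix (bHLH) genes Neurog1, Neurog2, Neurog3, Neurod1, Neurod2, Neurod4, Neurod6, Atoh1 and Atoh7 were taken as listed, from 21883 protein-coding genes in all. They were examined in 14 peak lists of CUT&Tag, an assay in which an antibody tethers the transposase that cuts and tags the DNA nearby. A peak belonged to a gene when it overlapped the gene body or the 50 kb on either side (mm10), called the window below. All libraries came from C57BL/6J mouse embryos at E11.5 and from tissue labelled CVG, the usual abbreviation of the cochleovestibular ganglion that supplies hearing and balance. The groups were ISL1_26 (1 library) and ISL1_70 (3 libraries), both with the antibody label ISL1, POU4F1 (2), H3K4me3 (2), H3K27me3 (3) and H3K27ac (3). The labels name no mutant, transgene or treatment. They do not state what 26 and 70 stand for, or whether replicates came from separate embryos, dissections or pools. The 6 IgG libraries (3 of IgGR and 3 of IgGM) were not analysed here.

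Proneural bHLH proteins bind the DNA motif CANNTG, the E-box, as dimers with E proteins such as TCF3. In vertebrate neurogenesis the neurogenins commit progenitors to a neuronal fate, Notch signalling through HES proteins holds neighbouring cells back, and NEUROD proteins carry differentiation forward. In the mouse inner ear NEUROG1 is needed for ganglion neurons to form, NEUROD1 for their delamination and survival, and ATOH1 for hair cells. ISL1, a LIM homeodomain factor, and POU4F1, a POU homeodomain factor, act in sensory neurons that have left the progenitor pool. H3K27ac marks active promoters and enhancers, H3K4me3 marks promoters, and H3K27me3 marks chromatin held by Polycomb.

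The lists held between 8855 peaks (H3K27ac replicate 1) and 168144 peaks (H3K27ac replicate 3), and read depth is unknown. A region was called replicated when overlapping peaks of 1 target came from at least 2 of its libraries. The library labelled H3K4me3 replicate 1 stood apart from its label: 87.4% of its peaks overlapped a peak of H3K27me3 replicate 3 and 13.3% overlapped a peak of H3K4me3 replicate 2. Replicated H3K4me3 counts below include that library, and H3K4me3 replicate 2 is also given alone. H3K27me3 replicate 1 was also mixed, with 32.1% of its peaks over H3K27me3 replicate 3 and 39.7% over H3K27ac replicate 2. As a check of the tissue, H3K27ac was replicated within 1 kb of an end of 13 of 14 sensory neuron genes, 3 of 4 glial and neural crest genes, 1 of 5 otic epithelium genes, 1 of 5 mesenchyme genes, 1 of 3 muscle genes, 0 of 5 blood and endothelium genes and 0 of 4 hindbrain genes. Over all genes that share was 47.5%. H3K27me3 was replicated at an end of 12 of the same 14 sensory neuron genes, 3 of 4 glial and neural crest, 4 of 5 otic epithelium, 5 of 5 mesenchyme, 1 of 3 muscle, 2 of 5 blood and endothelium and 4 of 4 hindbrain genes, beside 20.5% of all genes. The contribution of several cell types in the tissue to a gene with both marks was not tested.

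The 250 bases before the start of Neurog1, Neurod1, Neurog2 and Atoh1 show the promoters on which the results below turn. They are from RefSeq (assembly GRCm38.p6, the same main chromosomes as mm10), written 5′ to 3′ on the strand of the gene. Capitals mark matches, on either strand, to the motifs searched. These were the E-box CANNTG with its forms CAGATG and CAGCTG, the ISL1-like motif CTAATG, the homeodomain core TAATTA, the POU4-like motif ATAATTAAT and the octamer ATGCAAAT. Both forms of the E-box also match CANNTG, and the POU4-like motif holds the homeodomain core. Neurog1 lies at chr13:56252181-56252430 (minus strand), Neurod1 at chr2:79456637-79456886 (minus strand), Neurog2 at chr3:127632886-127633135 (plus strand) and Atoh1 at chr6:64728875-64729124 (plus strand).
Neurog1: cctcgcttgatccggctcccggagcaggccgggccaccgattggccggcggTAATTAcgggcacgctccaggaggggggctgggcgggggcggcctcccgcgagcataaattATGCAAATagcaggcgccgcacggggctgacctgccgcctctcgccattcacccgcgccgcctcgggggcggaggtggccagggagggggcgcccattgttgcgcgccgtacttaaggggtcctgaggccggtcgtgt
Neurod1: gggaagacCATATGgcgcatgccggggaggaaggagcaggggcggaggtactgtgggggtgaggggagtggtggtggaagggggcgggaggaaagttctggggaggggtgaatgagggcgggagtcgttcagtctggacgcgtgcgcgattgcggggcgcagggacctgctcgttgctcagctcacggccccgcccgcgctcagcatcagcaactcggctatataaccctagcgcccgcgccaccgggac
Neurog2: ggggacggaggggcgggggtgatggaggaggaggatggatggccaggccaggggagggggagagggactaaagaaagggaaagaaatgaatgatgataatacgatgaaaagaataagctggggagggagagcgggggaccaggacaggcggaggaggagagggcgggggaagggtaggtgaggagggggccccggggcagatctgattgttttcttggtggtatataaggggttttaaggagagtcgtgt
Atoh1: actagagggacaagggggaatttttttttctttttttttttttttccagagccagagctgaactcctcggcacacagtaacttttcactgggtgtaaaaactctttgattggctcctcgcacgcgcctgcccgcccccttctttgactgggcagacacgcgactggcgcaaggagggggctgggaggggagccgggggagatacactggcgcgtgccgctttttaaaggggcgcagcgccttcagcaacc
The Neurog1 promoter held TAATTA, which 4.84% of 32851 RefSeq promoters hold over the same length. It also held ATGCAAAT, the octamer bound by POU factors, which 1.6% of those promoters hold. The octamer was added to the search after this sequence had been read. Neither motif was found in the same window of the other 8 genes. The Neurod1 promoter held 1 E-box (CATATG), and the promoters of Neurog2 and Atoh1 held none of the motifs searched. At least 1 E-box was found for 5 of the 9 genes (Neurog3, Neurod1, Neurod2, Neurod6 and Atoh7), beside 66.2% of all promoters. CAGATG was found in Neurod2 and Atoh7, CAGCTG in Neurog3, and CTAATG and ATAATTAAT in none. The GC content of these stretches was 71.2% for Neurog1 and Neurog3, 67.6% for Neurod1, 58.0% for Neurog2 and 57.6% for Atoh7. It was 55.6% for Atoh1, 52.8% for Neurod2, 46.0% for Neurod6, and 51.2% and 54.8% for the 2 starts of Neurod4. The median over all promoters was 52.4%.

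H3K27me3, the mark of Polycomb, was called at most of these genes. A replicated H3K27me3 region lay within 1 kb of an end of 8 of the 9 genes, all but Neurod4, and 20.5% of all genes had one. At the start itself it was found for 7 of 9 (Neurog1, Neurog2, Neurog3, Neurod1, Neurod2, Atoh1 and Atoh7), beside 18.3% of the 17491 genes with a RefSeq promoter. In the window the count was 8 of 9, beside 50.4% of all genes and 44.6% of the 7925 genes no longer than 10 kb. Without H3K27me3 replicate 1 the count at an end was again 8, without replicate 2 it was 6 and without replicate 3 it was 5. Requiring every H3K27me3 library gave 6.

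Fewer of the 9 genes had a replicated region of another target in the window. Replicated H3K27ac regions lay in the windows of 6 of 9 (77.2% of all genes, 61.4% of genes no longer than 10 kb) and at an end of 3 of 9 (Neurog1, Neurod1 and Atoh1, beside 47.5%). Leaving out H3K27ac replicate 2 or replicate 3 brought these counts to 3 and 1. Replicated ISL1 regions lay in the windows of 5 of 9 (Neurog1, Neurog3, Neurod1, Neurod2 and Neurod6), beside 62.1% of all genes and 50.6% of the shorter ones, which is close to the background. At an end the ISL1 count was 2 of 9 (Neurog1 and Neurog3, beside 15.3%) and at the start 1 of 9 (Neurog1, beside 14.5%). The count at an end was 0 without ISL1_70 replicate 1 or without ISL1_70 replicate 2. A replicated POU4F1 region lay in the window of 1 of 9, Neurod2, beside 3.98% of all genes, and at an end of none, beside 0.503%. Each POU4F1 list taken alone had peaks in the windows of 8 of 9, with backgrounds of 77.4% and 77.5%. H3K4me3 was replicated in the windows of 4 of 9 (20.1%) and at an end of 3 (7.47%), a count that includes the library labelled H3K4me3 replicate 1. In H3K4me3 replicate 2 alone, peaks lay within 1 kb of the start of 2 of 9, Neurog1 and Neurod1, beside 41.1% of genes.

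**Figure D1:**
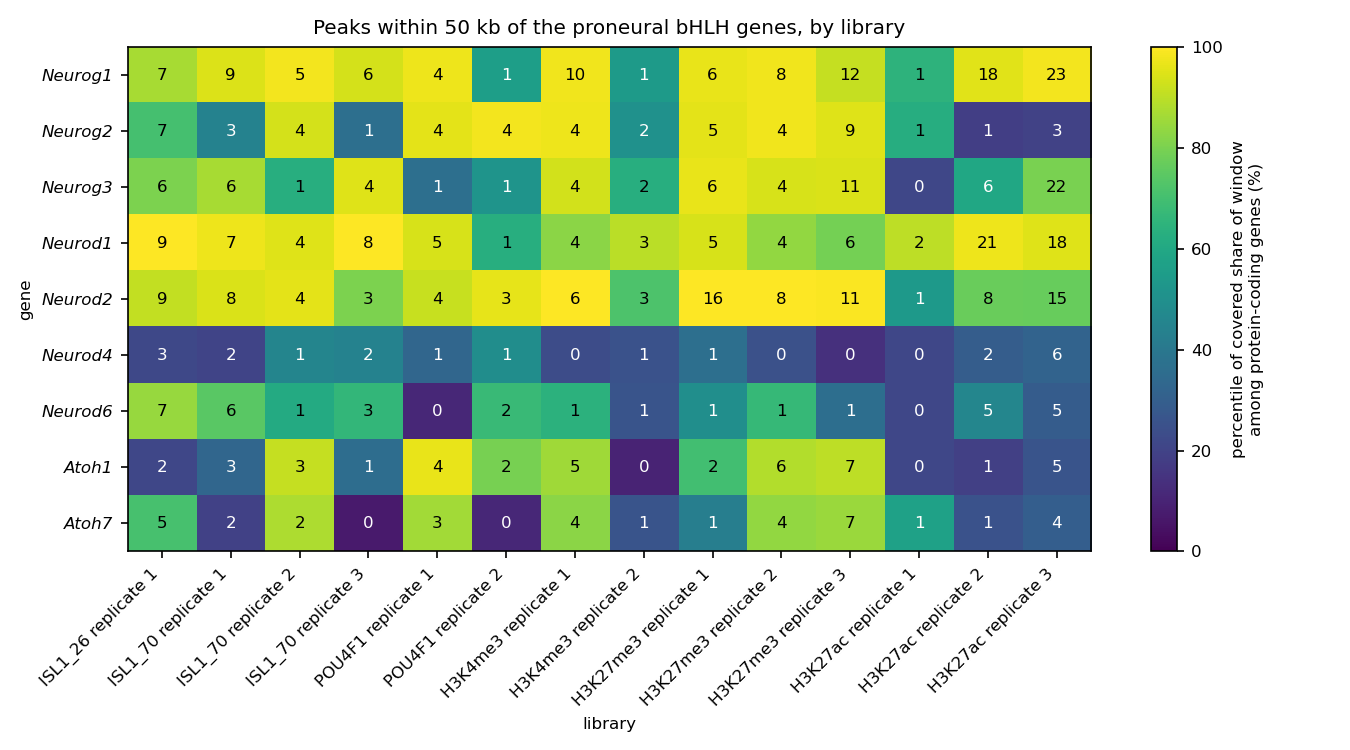
Peaks in the window of each gene (rows) in each of the 14 libraries (columns): the number in a cell counts peaks, and the colour gives the percentile, among 21883 protein-coding genes in that library, of the share of the window that peaks cover. Neurod2 is above the 99th percentile in all 3 H3K27me3 libraries, Neurod1 is above the 94th in all 4 ISL1 libraries and in H3K27ac replicates 2 and 3, and Neurod4 is below the 50th in every library.

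The length covered by H3K27me3 differed widely among the genes. Neurod2 had 8.93, 45.2 and 48.8 kb of its 104 kb window under H3K27me3 peaks in replicates 1, 2 and 3. For Neurog2 the values were 2.80, 19.9 and 20.1 kb, for Neurog1 3.06, 19.4 and 14.3 kb, and for Neurog3 3.01, 11.3 and 18.2 kb. Atoh1 had 0.791, 6.92 and 13.1 kb and Atoh7 had 0.272, 4.80 and 9.12 kb. Neurod1 was more evenly covered, at 2.40, 4.92 and 6.71 kb. Neurod6 (0.379, 1.45 and 0.416 kb) and Neurod4 (0.229, 0 and 0 kb) had little or none. Replicate 1 was the lowest of the 3 libraries for every gene but Neurod4, and in replicates 2 and 3 Neurod2 lay above the other 8 genes. The medians over the 9 genes were 2.40, 6.92 and 13.1 kb, and over all genes 0.55, 0.135 and 1.79 kb. Over genes no longer than 10 kb they were 0.343, 0 and 1.21 kb.

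H3K27ac followed another order. Neurod1 had 1.77, 23.2 and 19.8 kb under H3K27ac peaks in replicates 1, 2 and 3, and Neurog1 had 0.573, 19.1 and 24.6 kb. Neurod2 (0.379, 8.69 and 10.6 kb) and Neurog3 (0, 4.54 and 11.3 kb) came next. The other 5 genes had at most 2.90 kb in any library. Neurog2 had 0.529, 0.245 and 1.17 kb of H3K27ac beside its broad H3K27me3. By share of the window covered, Neurod1 stood at percentiles of 89.9, 97.6 and 95.0 among all genes in replicates 1, 2 and 3. Those of Neurog1 were 64.7, 95.5 and 98.1. The medians over the 9 genes were 0.379, 2.77 and 2.90 kb, beside 0.43, 4.34 and 6.93 kb over all genes. Over genes no longer than 10 kb, which have shorter windows, they were 0, 2.28 and 3.93 kb. The medians of the 9 genes were thus above those of the shorter genes in replicates 1 and 2 and below in replicate 3.

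**Figure D2:**
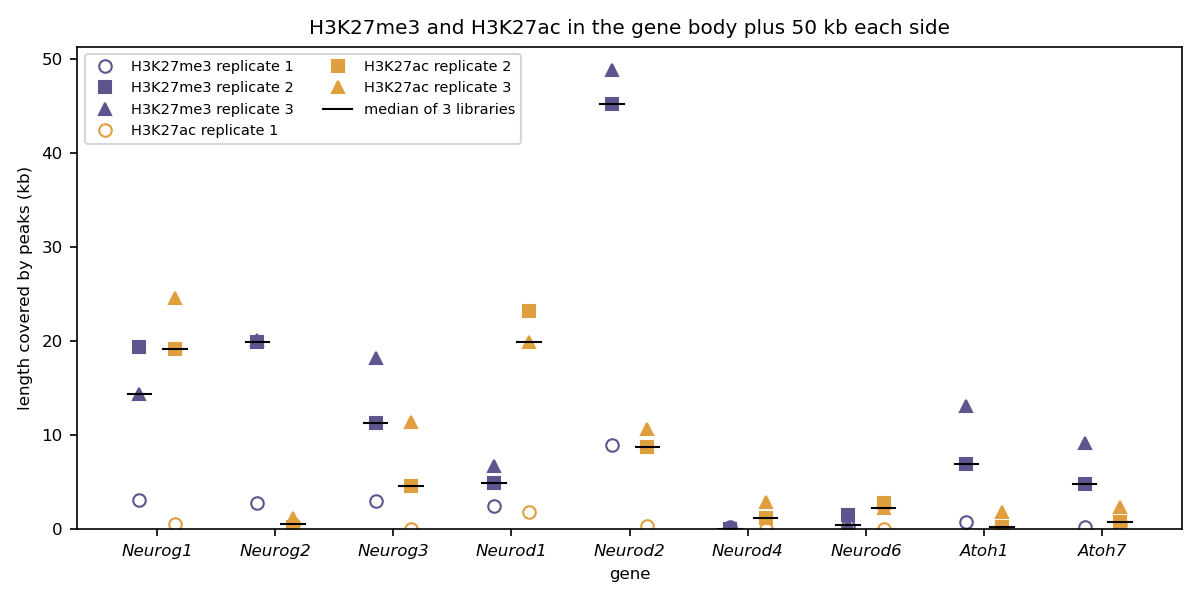
Length of the window covered by H3K27me3 and by H3K27ac peaks (kb, vertical axis) for each gene, with 1 symbol per library and a line at the median of the 3 libraries. Neurog1 and Neurod1 are high for H3K27ac, Neurod2, Neurog2, Neurog1 and Neurog3 for H3K27me3, and H3K27ac replicate 1 is at 1.77 kb or less throughout.

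The H3K27me3 regions that crossed gene starts ranged from narrow to broad. Their widths were 16.4 kb for Neurod2, 10.6 kb for Neurog3, 10.0 kb for Neurog2, 5.51 kb for Neurog1, 2.51 kb for Atoh1, 2.07 kb for Atoh7 and 1.70 kb for Neurod1. Of 11078 replicated H3K27me3 regions, with a median width of 2.01 kb, 1.19% were as wide as that of Neurod2 and 3.61% as wide as that of Neurog2. The regions over the starts of Neurod1, Atoh7 and Atoh1 were of ordinary width (56.8%, 49.0% and 40.7% were as wide). Peaks were joined only where they overlapped, so these widths leave out separate regions close by. Regions of 1.63 and 5.17 kb flanked that of Atoh1, and 2.20 and 2.31 kb that of Neurod1. One of 1.32 kb lay beside that of Atoh7. Neighbours of 9.45 and 15.6 kb also lay beside the wide regions of Neurog2 and Neurod2. Both H3K27me3 and H3K27ac were replicated within 1 kb of the start of 3 of 9 genes, Neurog1, Neurod1 and Atoh1, beside 6.45% of genes.

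Neurog1 (chr13:56250478-56252180, minus strand), the neuronal determination gene of the inner ear, had peaks of every target. The 4 ISL1 libraries had 7, 9, 5 and 6 peaks in its window (ISL1_26 replicate 1, then ISL1_70 replicates 1 to 3), beside medians of 5, 4, 1 and 2 over all genes. POU4F1 replicates 1 and 2 had 4 peaks and 1 peak. Over its start lay H3K27me3 peaks of replicates 2 and 3 and H3K27ac peaks of replicates 2 and 3, and H3K4me3 replicate 2 had its sole peak of the window within 1 kb of the start. The H3K27ac region over the start was 2.54 kb wide and lay wholly inside the 5.51 kb H3K27me3 region. Its peaks ranked in the top 1.17% and 3.06% of the H3K27ac lists of replicates 2 and 3 (rank by −log10 q within a list, 0% being the strongest).

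The highest-ranked POU4F1 peak near these genes lay over the start of Neurog1, in 1 of 2 libraries. In POU4F1 replicate 1 it spanned chr13:56251679-56252519 and so held the whole promoter stretch printed above, with the authors' fold enrichment of 122 and a rank in the top 0.768% of that list. POU4F1 replicate 2 had no peak there, and its sole peak of the window lay 43.2 kb upstream at 78.5% of its list. An ISL1_26 replicate 1 peak (52.1% of its list) overlapped the POU4F1 replicate 1 peak, and the ISL1_70 libraries had none at that place.

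Neurog1 had 4 replicated ISL1 regions, and 11.8% of all genes had as many. The leading one, chr13:56208509-56209154, lay 43.0 kb downstream in no gene, where the nearest gene end was that of Tifab. It was called in ISL1_26 replicate 1 (authors' fold 19.0, 4.23% of its list), ISL1_70 replicate 1 (18.8, 11.3%) and ISL1_70 replicate 3 (40.7, 4.16%), and not in ISL1_70 replicate 2. H3K27ac replicates 2 and 3 covered it with peaks in the top 2.75% and 0.905% of their lists, and no library of H3K27me3, H3K4me3 or POU4F1 had a peak there. The other 3 regions were of middling rank: 1 lay 15.0 kb downstream (3 libraries), 1 lay 0.541 kb upstream of the start and 1 lay 6.67 kb upstream (2 libraries each). The 2 upstream regions were covered by both H3K27me3 and H3K27ac. Without ISL1_70 replicate 1 the count of ISL1 regions fell from 4 to 2. The count of H3K27ac regions went from 11 to 1 without H3K27ac replicate 2 or without replicate 3, and that of H3K27me3 regions from 7 to 3 without H3K27me3 replicate 2.

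**Figure D3:**
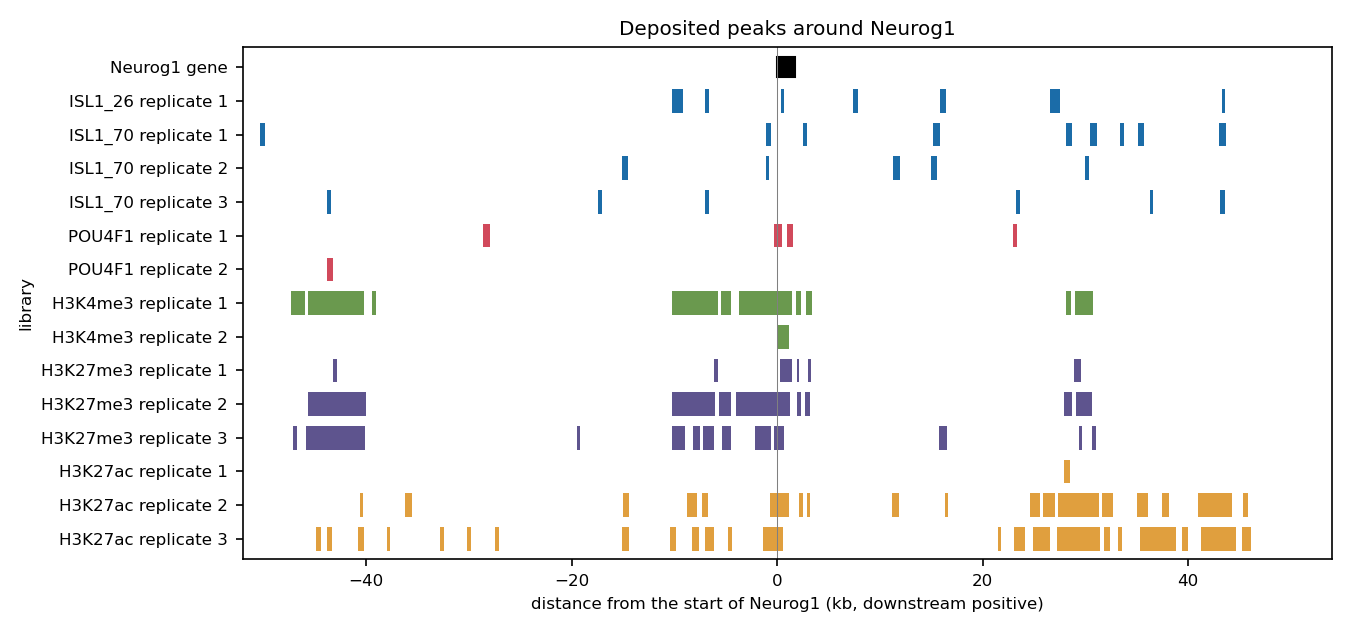
Deposited peaks around Neurog1 by distance from its start (kb, downstream positive), with 1 line per library and the gene as a black box. The POU4F1 replicate 1 peak, H3K27ac replicates 2 and 3 and H3K27me3 meet at the start, and the leading ISL1 region with H3K27ac lies 43.0 kb downstream.

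Neurog2 (chr3:127632733-127635636, plus strand), a determination factor of other cranial ganglia and of the central nervous system, lay in broad H3K27me3 with no replicated ISL1 or H3K27ac region. Its 3 H3K27me3 regions were 10.0, 9.45 and 2.22 kb wide, and the first crossed the start. H3K27ac replicate 1 alone had a peak over the start, at 20.7% of its list. The ISL1 libraries had 7, 3, 4 and 1 peaks in the window, none of them shared by 2 libraries. POU4F1 replicates 1 and 2 had 4 peaks each, again with no overlap between them. The nearest to the start was a replicate 1 peak 0.454 kb downstream, at 87.3% of its list.

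Neurog3 (chr10:62133090-62134763, plus strand), known for the endocrine lineage of the pancreas, was crossed from end to end by a 10.6 kb H3K27me3 region with peaks in all 3 libraries. Replicates 2 and 3 each crossed the gene with 1 peak, of 10.0 and 10.6 kb. Replicate 1 had only shorter, separate peaks in that region, the widest of 1.055 kb. Neurog3 had 2 replicated ISL1 regions. The leading one, chr10:62113842-62115234, lay 17.9 kb upstream, 2.79 kb from the nearest end of Fam241b, with H3K27ac in replicates 2 and 3 and no H3K27me3. Its peaks ranked at 19.9%, 9.63% and 86.2% in ISL1_26 replicate 1, ISL1_70 replicate 1 and ISL1_70 replicate 3, so its strength differed between libraries. The peaks of ISL1_26 replicate 1 and ISL1_70 replicate 1 did not overlap each other. Only the low-ranked peak of ISL1_70 replicate 3 joined them into 1 region. The second ISL1 region, in ISL1_70 replicates 1 and 2, overlapped the end of Neurog3 within the H3K27me3 region. Leaving out any 1 of the 3 ISL1_70 libraries gave a count of 1. POU4F1 replicates 1 and 2 had 1 peak each, 30.1 kb upstream and 11.4 kb downstream.

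Neurod1 (chr2:79452637-79456636, minus strand), the differentiation factor downstream of NEUROG1 in this lineage, had 6 replicated ISL1 regions, and 4.55% of all genes and 1.64% of genes no longer than 10 kb had as many. The 4 ISL1 libraries covered 9.40, 5.65, 1.94 and 6.69 kb of its window, at percentiles of 99.7, 97.5, 95.2 and 99.9 among all genes. Of the 6 regions, 5 lay 34.5 to 53.4 kb downstream of the start, inside the neighbouring gene Cerkl, whose own end was nearer to them. All 5 overlapped replicated H3K27ac, and none overlapped H3K27me3. The sixth lay 41.6 kb upstream with no H3K27ac.

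The leading region of Neurod1, chr2:79413613-79416004, was the sole replicated ISL1 region near these genes called in all 4 libraries, which held for a region in the windows of 8.07% of all genes. The authors' fold enrichment of its best peak was 41.8 in ISL1_26 replicate 1 and 64.5, 142 and 18.5 in ISL1_70 replicates 1, 2 and 3. These peaks ranked in the top 1.04%, 0.451%, 1.04% and 0.602% of their lists, so each library placed it among its strongest. H3K27ac replicates 2 and 3 ranked their peaks there in the top 0.188% and 0.108%, and H3K27ac replicate 1 had none. POU4F1 replicate 2 had a weak peak in the region (authors' fold 7.97, 72.5% of its list), and POU4F1 replicate 1 had none.

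A second strong region, chr2:79419769-79422170, was called in ISL1_26 replicate 1 (authors' fold 59.0, top 0.563%) and ISL1_70 replicate 3 (75.1, top 2.00%) and not in the other two ISL1 libraries. It overlapped a POU4F1 replicate 1 peak of fold 43.3 at 24.1% of that list. Another, 48.1 kb downstream, was called in 3 libraries with a mean rank of 3.71%. Over all 4 ISL1 libraries Neurod1 had the most regions of the 9 genes, but that order rested on 2 of them. Without ISL1_70 replicate 3 the count at Neurod1 was 2, beside 4 at Neurod2 and 3 at Neurog1, and without ISL1_26 replicate 1 it was 3, as at Neurog1. The 2 ISL1 regions with a POU4F1 peak thus drew it from different POU4F1 libraries, and no POU4F1 region at Neurod1 was replicated.

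The start of Neurod1 carried H3K27ac in all 3 libraries, with the start-spanning peaks at 83.9%, 0.174% and 0.0610% of the lists of replicates 1, 2 and 3. Replicates 2 and 3 thus ranked it near the top, and replicate 1 near the bottom. The joined H3K27ac region was 4.61 kb wide. H3K27me3 regions of 2.20, 1.70 and 2.31 kb lay over the gene body, the start and a stretch 1.91 kb upstream, each in all 3 H3K27me3 libraries. The upstream stretch also had H3K27ac in replicates 2 and 3 with a mean rank of 0.173%, an H3K4me3 replicate 2 peak and a POU4F1 replicate 1 peak 2.22 kb from the start (25.9% of its list). H3K27me3 replicate 1, in which the start peak had a −log10 q of 1.09, was close to the limit of 1 at which every list ended. ISL1 at the start was a single peak of ISL1_70 replicate 1, 0.022 kb upstream, over most of the promoter stretch printed above.

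**Figure D4:**
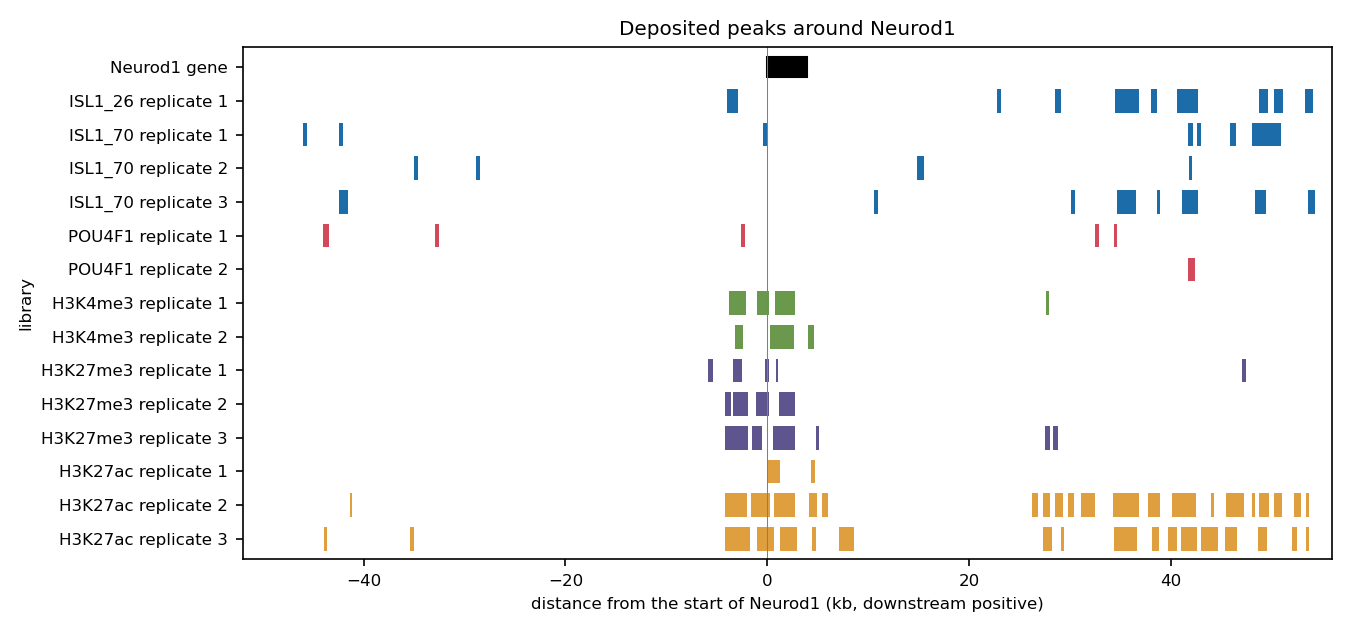
Deposited peaks around Neurod1 by distance from its start (kb, downstream positive), 1 line per library. ISL1 and H3K27ac peaks gather 34 to 54 kb downstream, and H3K27me3, H3K27ac and H3K4me3 meet within 5 kb of the start.

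Neurod2 (chr11:98325415-98329645, minus strand), a NEUROD factor of maturing forebrain neurons, lay in the broadest H3K27me3 of the 9 genes. Its 4 H3K27me3 regions summed to 47.4 kb, and the 16.4 kb region over the start ranked at a mean of 0.554% over the 3 lists. Its 6 H3K27ac regions all lay in Stard3, 28.3 kb or more upstream, and none overlapped H3K27me3. Their count was 1 without H3K27ac replicate 2 or without replicate 3. Of 4 replicated ISL1 regions, 3 lay in H3K27me3 and 1 in H3K27ac. The leading one, chr11:98351251-98351928, lay 21.6 kb upstream inside Ppp1r1b and was called in the 3 ISL1_70 libraries at 24.8%, 46.0% and 53.4% of their lists, with all 3 H3K27me3 libraries and no H3K27ac library over it. The region in Stard3 with H3K27ac, 30.8 kb upstream, had the stronger mean rank, 5.47% over 2 libraries. Leaving out ISL1_26 replicate 1, ISL1_70 replicate 1 or ISL1_70 replicate 2 gave a count of 2 in place of 4.

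The sole replicated POU4F1 region near the 9 genes, chr11:98327437-98328226, lay inside Neurod2, 1.42 kb downstream of its start. POU4F1 replicate 1 had a peak there of fold 35.9 at 36.4% of its list and replicate 2 one of fold 8.03 at 71.1%. It was thus of middling to low rank in both libraries, and it lay within the broad H3K27me3 region. It was not among the 10000 best peaks of each library. One ISL1 library had a peak in it.

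Neurod4 (chr10:130268152-130280254, minus strand) and Neurod6 (chr6:55677818-55681263, minus strand), also of the NEUROD group and best known from retina and cortex, had few calls. Neurod4 had 3, 2, 1 and 2 ISL1 peaks in its window, none replicated, and 2 replicated H3K27ac regions, 1.78 kb upstream and 34.9 kb downstream, both resting on H3K27ac replicates 2 and 3. It was the sole gene of the 9 with no peak of any library within 1 kb of its start. Neurod6 had 7, 6, 1 and 3 ISL1 peaks and 1 replicated ISL1 region, chr6:55704453-55705270, 23.2 kb upstream, at 52.1% and 48.0% of the lists of ISL1_26 replicate 1 and ISL1_70 replicate 3. No mark library had a peak over that region, and either library left out removed it. Peaks of ISL1_26 replicate 1 and H3K27ac replicate 2 crossed the start of Neurod6, and a 1.45 kb H3K27me3 region lay 3.90 kb downstream of it, past the gene's end, in 2 libraries.

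Atoh1 (chr6:64729125-64731245, plus strand), the hair cell determination factor, had no replicated ISL1 region. Its ISL1 libraries had 2, 3, 3 and 1 peaks in the window, none within 1 kb of the start. It was the sole gene with peaks of both POU4F1 libraries within 1 kb of its start. That of replicate 1 lay 0.427 kb upstream (authors' fold 36.9, 34.3% of its list), and that of replicate 2 crossed the start (12.0, 55.6%), reaching the last bases of the stretch printed above. The 2 peaks did not overlap, so no replicated region was formed. Of its 4 H3K27me3 regions, those of 1.63, 2.51 and 5.17 kb lay 0.850 kb upstream, over the start and 2.59 kb downstream. A 0.561 kb H3K27ac region of replicates 2 and 3 lay inside the second, 0.485 kb past the start, at a mean rank of 46.9%. H3K4me3 replicate 2 had no peak in the window.

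Atoh7 (chr10:63099785-63101280, plus strand), the determination factor of retinal ganglion cells, had 4 replicated H3K27me3 regions and none of ISL1, POU4F1 or H3K27ac. The one over its start was 2.07 kb wide and found in replicates 2 and 3. ISL1 peaks in its window numbered 5, 2, 2 and 0. POU4F1 replicate 1 had 3 peaks, none nearer than 10.1 kb, and replicate 2 had none. The H3K27me3 counts of both Atoh genes rested on replicates 2 and 3: Atoh7 had 1 region without either, and Atoh1 had 1 without replicate 2 and 2 without replicate 3.

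**Figure D5:**
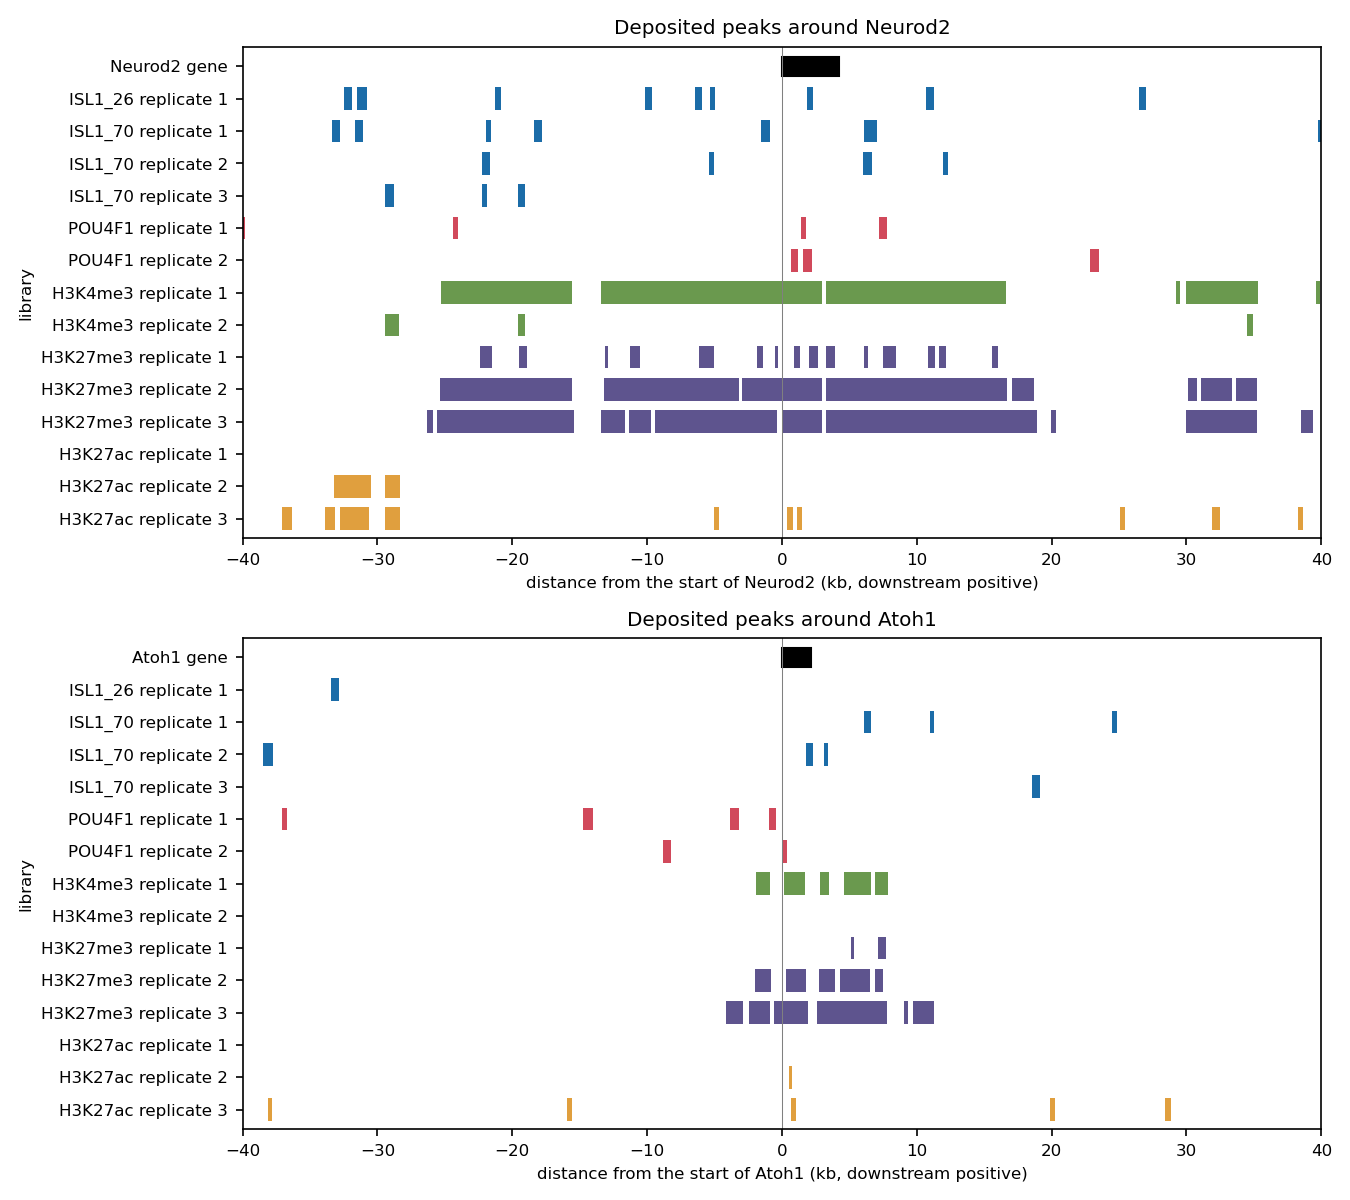
Deposited peaks within 40 kb of the starts of Neurod2 (upper panel) and Atoh1 (lower panel) by distance from the start (kb, downstream positive), 1 line per library. H3K27me3 replicates 2 and 3 run across Neurod2, where the POU4F1 peaks of both libraries meet 1.42 kb downstream, and the POU4F1 peaks at the start of Atoh1 lie side by side.

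Over all 9 windows there were 17 replicated ISL1 regions, of which 1 was called in 4 libraries, 5 in 3 and 11 in 2. Replicated H3K27ac overlapped 10 of the 17, beside 47.5% of the 20413 replicated ISL1 regions of the genome. Replicated H3K27me3 overlapped 6 of 17 (at Neurog1, Neurog3 and Neurod2), beside 6.94% of the genome's ISL1 regions, and 2 of these 6, at Neurog1, had both marks. That share is not a like background, because these windows were rich in H3K27me3. Replicate 2 peaks of that mark covered 43.4% of the Neurod2 window, 19.1% at Neurog1 and 11.1% at Neurog3. Whether ISL1 regions lay in H3K27me3 more often than this cover gives was not tested. A POU4F1 peak overlapped 1 of the 17 in replicate 1 and 1 in replicate 2, both at Neurod1, beside 14.4% and 3.48%. A member gene had the nearest gene end for 7 of the 17, and 5 lay within 10 kb of a member's start. The windows hold 14 other protein-coding genes in all, so a region in a window need not act on the member.

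Across the 14 libraries, the percentiles of covered window share gave Pearson correlations between members of 0.850 for Atoh1 and Neurog2, 0.746 for Atoh1 and Neurod2 and 0.660 for Atoh7 and Neurog2. They were 0.490 for Neurod1 and Neurog1 and -0.556 for Neurod1 and Neurog2. These describe points that share libraries, and several libraries share a target. The genes named next are the highest of a search through all genes over 14 points, so high values can come from the search itself. How high such values run for any other gene was not tested. Among all genes with a window apart from the member's own, the one most like each member by the same measure was Bhlhe23 for Neurog1 (0.948), Atad5 for Neurog2 (0.942), Pole for Neurog3 (0.941), Gpd1 for Neurod1 (0.962), 6430628N08Rik for Neurod2 (0.944), Gm11437 for Neurod4 (0.929), Jph1 for Neurod6 (0.902), Kcng3 for Atoh1 (0.964) and Psmd1 for Atoh7 (0.932). The second gene was Creb3l1 for Neurog1 (0.948), Hoxc13 for Neurog2 (0.937) and P2rx2 for Neurog3 (0.924). It was Rffl for Neurod1 (0.958), Efcab15 for Neurod2 (0.941), Acyp2 for Neurod4 (0.928) and Dnmt3l for Neurod6 (0.872). For Atoh1 and Atoh7 it was Hlx (0.954) and 2310009B15Rik (0.916).

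The pathway genes around the proneural factors were counted in the same way, with no test of a difference from the 9 genes. Of 10 other neural bHLH genes, all 10 had replicated H3K27me3 at an end (20.5% of all genes), 3 had H3K27ac (47.5%) and 7 had ISL1 (15.3%). Nhlh2 and Nhlh1, bHLH genes of newly formed neurons, had 8 and 5 ISL1 regions and 11 H3K27ac regions each, with ISL1, H3K27me3 and H3K27ac all at an end. Of 18 Notch ligands, receptors and effectors, 15 had H3K27ac at an end (47.5%), 10 had H3K27me3 (20.5%) and 3 had ISL1 (15.3%). The ISL1 count was close to the background. Notch1, a receptor, had 4 ISL1 and 29 H3K27ac regions in its window, and Rbpj, the DNA-binding partner of the cleaved receptor, had 2 and 3.

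Among 7 partners and inhibitors of bHLH proteins, H3K27ac lay at an end of all 7, H3K27me3 of 3 and ISL1 of 3. The shares over all genes were 47.5%, 20.5% and 15.3%. Id3, an inhibitor that pairs with E proteins, and Tcf3, which encodes an E protein, had 3 and 2 ISL1 regions, each with ISL1 at an end. Of 18 genes that act downstream in neurons, 15 had H3K27ac at an end (47.5% of all genes), 11 had H3K27me3 (20.5%) and 6 had ISL1 (15.3%). In the window, 7 of these 18 had an ISL1 region called in all 4 libraries, beside 8.07% of all genes. Ebf1 and Ebf3 encode factors that follow the neurogenins in neuronal differentiation. Their windows held 24 and 15 ISL1 regions and 48 and 37 H3K27ac regions. A window includes the gene body, so longer genes have longer windows. Region counts at the pathway genes were not scaled by window length. They therefore do not show a higher density of regions than at the proneural genes. Replicated POU4F1 regions lay in the windows of 2 of the 18 Notch genes and of none in the other 3 lists, beside 3.98% of all genes.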

How the data were processed

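CUT&Tag peak lists of 14 libraries were used, 1 list per library without pooling. Per the file headers (the peak names), MACS2 called the peaks with a control. Which library served as control, and with what options, is not given in the sources used here. FastQC, Bowtie2, SEACR and the build mm10 are named in the submitters' processing notes, without roles or versions. The deposited columns hold each peak's fold enrichment, a ratio to the caller's background, its p-value and q-value as −log10, and a display score (not used). These are the authors' values and were used to rank or describe peaks within a list only. Read depth and the caller's background can change how many peaks a list holds, and their effect on the counts was not tested.

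Only autosomes and the X and Y chromosomes were used. Peaks of a target overlapping by at least 1 bp were merged. Genes, starts and promoters came from RefSeq tables of GRCm38.p6. Starts were taken from promoters where given (17491 genes). Gene ends are 1 kb around either end. The scripts (Python 3.11.15, numpy 2.4.6, pandas 2.3.3) recovered simulated overlaps without error. No test was made: counts stand beside the share of all protein-coding genes. Named genes of a pathway list are the 2 with the most ISL1 libraries, then the most ISL1 regions. Named regions are each gene's leading ISL1 region and those with a POU4F1 peak, and others described were chosen after their values were seen. The genes, lists and rules were chosen with earlier results of these data known. Alternatives varied the q limit, the list length, the overlap rule, the libraries and the windows.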

Additional observations from a re-analysis of the deposited data

How the results depend on the processing

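Of the recomputed counts of genes, 64 stayed within 1.5 times the value given and 29 did not. With the 10000 best peaks of each library, genes with ISL1 in the window went from 5 to 3 and at an end from 2 to 0, POU4F1 in the window from 1 to 0 and H3K27ac in the window from 6 to 3. With summits within 200 bp, ISL1 at an end, POU4F1 in the window and H3K4me3 at an end were 0. Requiring every library of the target gave 1 gene with ISL1 in the window and 0 at an end, and 3 and 1 for H3K27ac. With 10 kb flanks ISL1 was found for 3 genes. At the start only, ISL1 was found for 1. With 5 kb around either end, POU4F1 was found for 1 gene and H3K27ac for 5. Leaving out 1 library at a time, ISL1 ranged from 4 to 5 in the window and 0 to 2 at an end, POU4F1 was 8 in the window and 2 to 3 at an end, H3K4me3 was 8 in the window and 3 to 8 at an end, H3K27me3 ranged from 7 to 8 and 5 to 8, and H3K27ac from 3 to 6 and 1 to 3. For POU4F1 and H3K4me3 this leaves 1 list, whose own peaks then count. H3K27me3 in the window stayed between 7 and 8 under every alternative run. Among counts of regions at single genes, 173 stayed within 1.5 times and 88 did not. No paired analysis was possible because the results are counts of genes with a region and come from no test. Read depth is unknown, so an uncalled peak does not show absence.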
